A study of Mus musculus with 14 samples.

Results

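The 10 genes described here encode proteins of the growing axon tip in mouse brain. They are the collapsin response mediator proteins (CRMPs) Crmp1, Dpysl2, Dpysl3, Dpysl4 and Dpysl5, the membrane-bound growth cone proteins Gap43, Basp1 and Marcks, and the stathmins Stmn1 and Stmn2. They were chosen by symbol, and all 10 were found among the 17927 genes of the deposited count table. RNA-SEQ was performed on whole brains of 14 untreated mice at postnatal day 2 (P2), 7 labelled WT and 7 labelled Capn15 KO, and the comparison asks which mRNAs change in abundance when Capn15, a calpain protease, is lost. The brains came from 6 litters by the methods of the study. Which brain belongs to which litter was read from the letters A to F in the column names. Litter B gave WT_2, WT_3, KO_2 and KO_3, and each of the others, named A, C, D, E and F, gave 1 WT and 1 Capn15 KO brain. The WT group held 2 females and 5 males and the Capn15 KO group 4 females and 3 males. The mouse lines were generated on C57BL/6J, and the methods of the study describe a lacZ-Neo allele and a floxed allele of Capn15 without tying either to these brains.

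The growth cone is the motile end of a growing neurite, and its steering depends on actin at its edge and on microtubules behind it. CRMPs are cytosolic proteins that bind tubulin and carry the signal of semaphorin 3A from its neuropilin and plexin receptors to the cytoskeleton, under the control of kinases such as Cdk5 and Gsk3b. Gap43, Basp1 and Marcks are acylated proteins of the inner face of the plasma membrane that hold phosphoinositide lipids and, through them, act on cortical actin, with protein kinase C and calmodulin as regulators of Gap43 and Marcks. Stathmins bind tubulin dimers and favour the shrinking of microtubules. Stmn1 is present in dividing cells as well as in neurons, whereas Stmn2 is largely restricted to neurons and their axons.

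The 5 CRMP genes are paralogs, so the likeness of their coding sequences is given first. Over aligned coding bases the CRMPs were between 62.2% (Dpysl4 and Dpysl5) and 74.4% (Crmp1 and Dpysl2) identical, and the longest stretch that any of these pairs shared was 29 bases. A coding stretch around the run shared by Crmp1 and Dpysl4 is printed 5′ to 3′ from GENCODE M21 (GRCm38), with capitals at every base that differs from Crmp1, to show how far a read of this length tells these 4 genes apart. Dpysl2 differed from Crmp1 at 10 of 60 bases, Dpysl4 at 8 and Dpysl5 at 27, and Dpysl3 is not shown. Each window lies within 1 coding exon, at chr5:37280505-37280564 on the plus strand for Crmp1, chr14:66815490-66815549 on the minus strand for Dpysl2, chr7:139096206-139096265 on the plus strand for Dpysl4 and chr5:30784349-30784408 on the plus strand for Dpysl5.
Crmp1: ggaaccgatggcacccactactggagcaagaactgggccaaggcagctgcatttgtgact
Dpysl2: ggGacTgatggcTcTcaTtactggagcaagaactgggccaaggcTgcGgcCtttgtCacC
Dpysl4: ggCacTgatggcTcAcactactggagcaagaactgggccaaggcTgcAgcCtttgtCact
Dpysl5: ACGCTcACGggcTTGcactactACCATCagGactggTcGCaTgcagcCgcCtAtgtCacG

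The stathmins shared a longer unbroken run. Stmn1 and Stmn2 were 73.7% identical over 429 aligned coding bases and had 43 identical bases in a row, shown in the window below, in which capitals mark the 8 bases of Stmn2 that differ from Stmn1. The windows lie within 1 coding exon each, at chr4:134472871-134472930 on the plus strand (Stmn1) and chr3:8554859-8554918 on the plus strand (Stmn2). Reads that fall wholly inside such runs cannot be placed uniquely, and how the counting split them was not tested.
Stmn1: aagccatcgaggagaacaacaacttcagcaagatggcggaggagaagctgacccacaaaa
Stmn2: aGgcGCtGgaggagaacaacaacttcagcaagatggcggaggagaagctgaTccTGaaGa

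RefSeq promoter windows (GRCm38.p6) matched Crmp1, Dpysl5 and Basp1, and those of Dpysl2, Dpysl3, Dpysl4, Gap43, Marcks, Stmn1 and Stmn2 are not shown. The 250 bases before a start site are printed for these 3 genes, with 132 bases before the first start of Crmp1 that lie outside its annotated exons, because the levels of Crmp1 and Dpysl5 varied together across brains and Basp1 stands for the membrane proteins. Capitals mark the GC box (GGGCGG or CCGCCC, either strand, overlapping matches counted), the recognition letters of Sp1-type factors. It occurred once before Dpysl5 (chr5:30711314-30711563, plus strand), 2 times before the second start of Crmp1, which lies inside the gene (chr5:37245514-37245763, plus strand) and 4 times before Basp1 (chr15:25413765-25414014, minus strand), and it was present in 32.7% of 32851 mouse promoter windows of 250 bases. No window held a CCAAT box (CCAAT or ATTGG, in 33.8% of windows) or a TATA box (TATAAA or TTTATA, in 12.4%). An E box (CANNTG, in 66.2%) was found 1 time before Dpysl5 and 1 time before the second start of Crmp1. The shorter window before the first start of Crmp1 (chr5:37241808-37241939, plus strand) held 3 GC boxes and 0 E boxes.
Dpysl5: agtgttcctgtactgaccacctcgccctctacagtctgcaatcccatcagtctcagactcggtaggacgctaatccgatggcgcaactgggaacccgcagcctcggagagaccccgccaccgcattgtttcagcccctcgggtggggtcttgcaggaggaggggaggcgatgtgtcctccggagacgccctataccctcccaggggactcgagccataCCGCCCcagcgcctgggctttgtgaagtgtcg
Crmp1, first start: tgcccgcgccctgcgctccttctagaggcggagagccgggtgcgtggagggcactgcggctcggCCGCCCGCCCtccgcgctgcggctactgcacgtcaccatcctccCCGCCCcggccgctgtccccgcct
Crmp1, second start: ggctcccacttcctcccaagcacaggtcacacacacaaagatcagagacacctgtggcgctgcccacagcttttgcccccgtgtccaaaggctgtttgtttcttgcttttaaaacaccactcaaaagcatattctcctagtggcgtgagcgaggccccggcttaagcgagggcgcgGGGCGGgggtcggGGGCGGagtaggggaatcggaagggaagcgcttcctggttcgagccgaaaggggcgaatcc
Basp1: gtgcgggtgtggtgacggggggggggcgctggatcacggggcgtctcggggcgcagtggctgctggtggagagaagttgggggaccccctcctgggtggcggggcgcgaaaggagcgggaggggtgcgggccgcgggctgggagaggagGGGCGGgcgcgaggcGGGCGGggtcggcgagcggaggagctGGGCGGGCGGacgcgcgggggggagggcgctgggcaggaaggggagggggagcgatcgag

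Libraries held from 37620954 to 70910163 counts, and the 10 genes had between 6543 (Dpysl4) and 185450 (Dpysl3) counts in a library, so that counting error was small beside the spread between brains. Values are CPM, counts relative to the size of each library after scaling with TMM factors. The labels name the tissue as brain and the cell type as neurons. All 6 neuronal markers were detected, with a summed level of 6219 to 6642 CPM, and so were all markers of the other 8 cell type lists, such as astroglia (1473 to 2139 CPM), choroid plexus (594 to 959 CPM) and red blood cells (27.5 to 294 CPM). Capn15 itself was 18.7 to 27.3 CPM in the libraries labelled WT and 12.2 to 20.2 CPM in those labelled Capn15 KO. The libraries labelled WT_7 (18.7 CPM) and KO_7 (20.2 CPM), both from litter F, went against their labels, and results are therefore also given without litter F.

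The genes lie on 9 chromosomes in GRCm38. Crmp1 (chr5:37241940-37292133) and Dpysl5 (chr5:30711564-30799375) share chromosome 5, and Evc overlaps Crmp1 on the opposite strand with 0 exon bases in common. Dpysl2 lies at chr14:66802864-66868688, Dpysl3 at chr18:43320984-43438286 and Dpysl4 at chr7:139086001-139102704. The membrane proteins are encoded at chr16:42248442-42340651 (Gap43), chr15:25363277-25413764 (Basp1) and chr10:37133375-37138920 (Marcks). The stathmin genes lie at chr4:134468320-134473843 (Stmn1) and chr3:8509360-8561606 (Stmn2), and a miRNA gene, Gm23634, shares 66 exon bases with Stmn1 on the same strand.

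Before any comparison, the genes differed in level. Per kb of exon, Gap43 was highest (559 ± 24.6 CPM per kb, SD, 14 libraries) and Stmn1 followed (513 ± 34.5 CPM per kb). Dpysl3 (397 ± 12.4 CPM per kb), Dpysl2 (371 ± 15 CPM per kb) and Basp1 (347 ± 11.5 CPM per kb) came next. The next tier held Crmp1 (160 ± 5.11 CPM per kb), Marcks (154 ± 7.74 CPM per kb) and Stmn2 (145 ± 9.05 CPM per kb). Dpysl5 (67.8 ± 3.90 CPM per kb) and Dpysl4 (29.6 ± 1.44 CPM per kb) were lowest, and Gap43 was 18.9 times Dpysl4 on this scale. The ranges over libraries of Gap43 and Stmn1 overlapped, as did those of Dpysl3 and Dpysl2, of Dpysl2 and Basp1, of Crmp1 and Marcks, and of Marcks and Stmn2, but each library measures both genes. Dpysl3 was above Dpysl2 in 14 of 14 libraries and Dpysl2 above Basp1 in 13 of 14, whereas Crmp1 was above Marcks in 11 of 14, Marcks above Stmn2 in 10 of 14 and Gap43 above Stmn1 in 9 of 14. Gaps without overlap separated Stmn1 from Dpysl3, Basp1 from Crmp1, Stmn2 from Dpysl5 and Dpysl5 from Dpysl4. The order rests on the length used, since with the longest transcript in place of all exons Stmn1 (930 CPM per kb) lay above Gap43 (600 CPM per kb) and Crmp1 (370 CPM per kb) lay beside Dpysl2 (371 CPM per kb). On that length Marcks (154 CPM per kb) was above Stmn2 (239 CPM per kb) in 0 of 14 libraries, and Dpysl2 above Basp1 in 5 of 14. Among all genes with a length, the level of Gap43 ranked 37 and that of Dpysl4 1614.

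**Figure D1:**
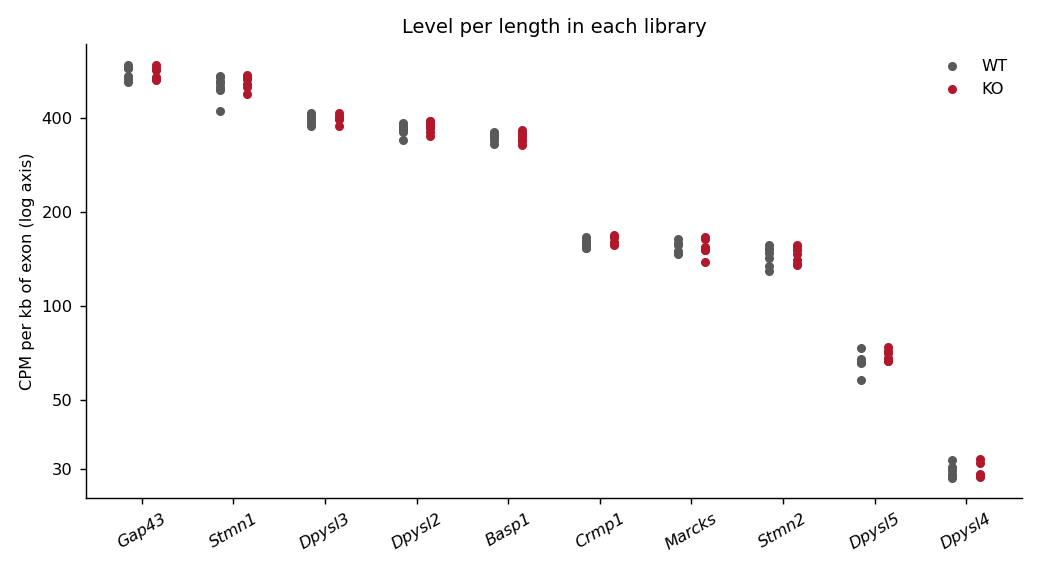
Level of each gene in TMM-scaled CPM per kb of exon on a log axis, with 1 point per library (WT grey, Capn15 KO red). Gap43 and Stmn1 lie highest, Dpysl4 lies lowest near 29.6 CPM per kb, and WT and Capn15 KO points overlap for every gene.

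Within the CRMP family, Dpysl3 and Dpysl2 together made up most of the mRNA per length. Dpysl3 took 38.9% ± 0.625 of the summed CRMP level per kb in WT brains and 38.5% ± 0.546 in Capn15 KO brains (SD, n = 7 each). Dpysl2 took 36.1% ± 0.473 and 36.2% ± 0.460, and Crmp1 15.5% ± 0.302 and 15.7% ± 0.246. Dpysl5, the most divergent member in sequence, took 6.50% ± 0.251 and 6.71% ± 0.149, and Dpysl4 2.90% ± 0.179 and 2.87% ± 0.165. The make-up of the family thus differed between genotypes by less than the SD of the WT brains for every member. These shares rest on the length used, since with the longest transcript in place of all exons Crmp1 took 27.1% ± 0.469 in WT and 27.3% ± 0.361 in Capn15 KO brains, beside 27.3% ± 0.368 and 27.3% ± 0.388 for Dpysl2.

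None of the 10 genes passed the test between genotypes. In the edgeR fit of all genes, which held litter, sex and genotype, 0 of 10 had an adjusted p under 0.05, against 1 of 17927 genes (0.00558%), Ptgds, named here after its value was seen. Capn15 itself was not called by this edgeR fit (log2 fold change -0.81, adjusted p = 0.0747), which limits what an absent call can show. At an unadjusted p under 0.05 there was 1 of 10, Dpysl5, against 922 genes (5.14%). The log2 fold changes of Capn15 KO over WT ran from -0.0083 (Gap43) to 0.076 (Dpysl5), with a median of 0.012 beside 0.0015 for all genes. The 95% intervals of the 10 differences reached from 4.10% lower (Basp1) to 10.3% higher (Dpysl5) in Capn15 KO. The WT and Capn15 KO ranges overlapped for 10 of 10 genes, and ranges that did not overlap were found for 0.00558% of all genes. Without litter F, and with DESeq2 or limma-voom in place of edgeR, 0 of 10 were called as well.

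**Figure D2:**
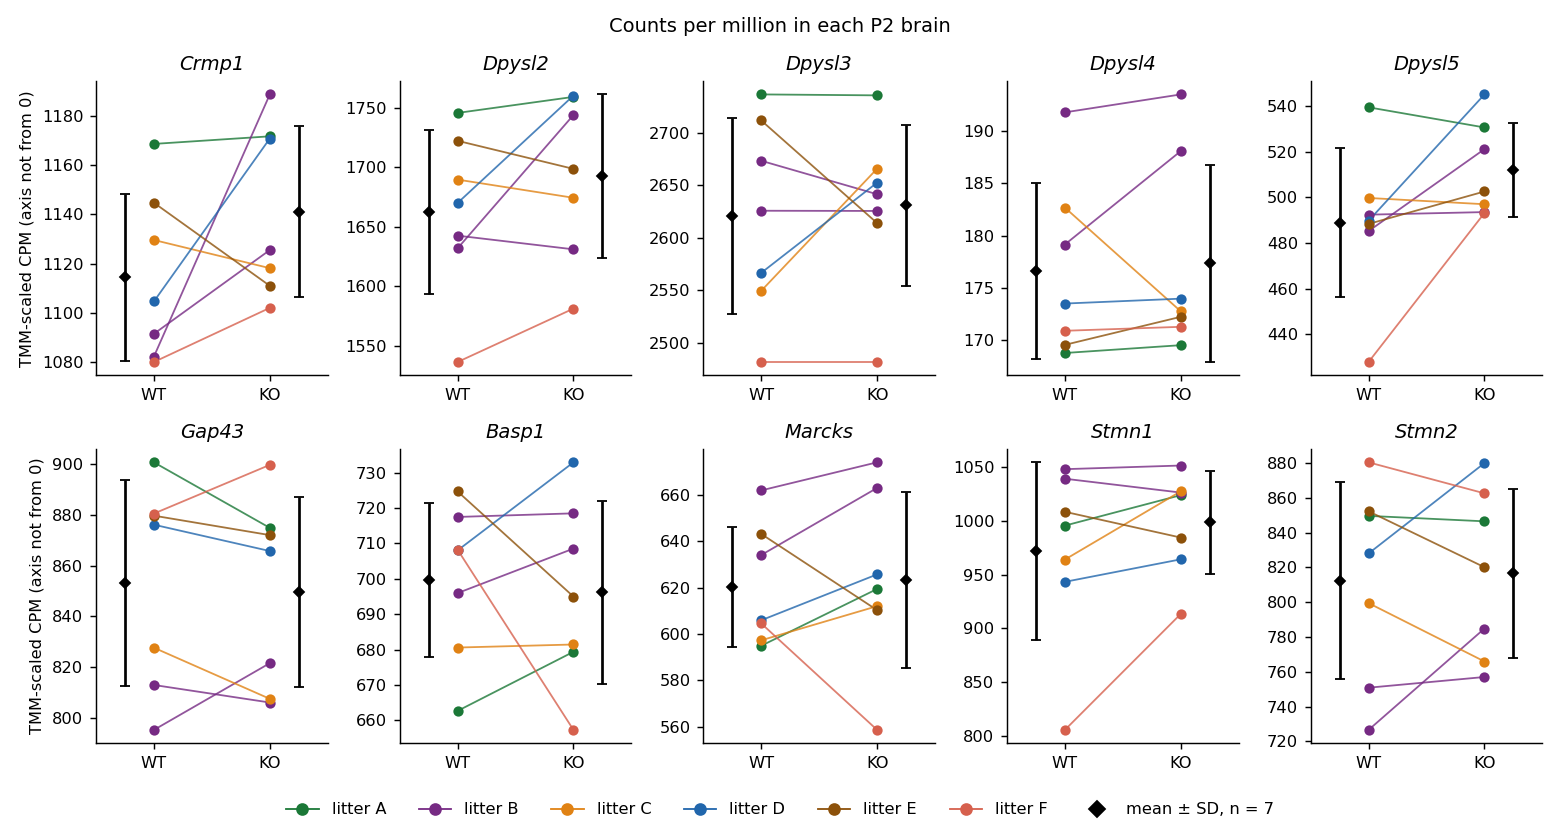
TMM-scaled CPM of each gene in the 7 WT and 7 Capn15 KO brains, with lines joining brains of the same number and litter (colours) and diamonds for the mean ± SD; each axis has its own range and does not start at 0. The WT and Capn15 KO points overlap in every panel, and WT_7 of litter F lies lowest for Stmn1 (805 CPM) and Dpysl5 (428 CPM).

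Crmp1, an effector of semaphorin 3A signalling, lay at 1080, 1105 and 1169 CPM in WT brains (lowest, median, highest) and at 1102, 1126 and 1189 CPM in Capn15 KO brains. It was higher in the Capn15 KO brain in 5 of 7 pairs, and the groups overlapped over most of their range. Pairs here and below are brains of the same number. In litter B, with 2 brains of each genotype, this pairing is arbitrary. The brains of a pair were of opposite sex in every litter but F, so that the pair counts mix genotype with sex. The fold change was 1.02 (95% interval 0.985 to 1.06) with an edgeR adjusted p of 1.0. Dpysl2 encodes CRMP2, the best studied CRMP, which binds tubulin dimers and promotes axon formation. Dpysl2 lay at 1536, 1670 and 1746 CPM in WT and at 1581, 1699 and 1760 CPM in Capn15 KO brains. The lowest library of both genotypes was that of litter F, and 4 of 7 pairs were higher in Capn15 KO.

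Dpysl3 (CRMP4), which bundles actin and is strongly expressed in immature neurons, had the highest CPM of the 10 genes. Dpysl3 lay at 2481, 2626 and 2736 CPM in WT and at 2481, 2641 and 2735 CPM in Capn15 KO brains, so that both groups covered nearly the same span. Its fold change was 1.01 (95% interval 0.982 to 1.04). Dpysl4 (CRMP3), the least abundant, lay at 169, 173 and 192 CPM in WT and at 169, 173 and 194 CPM in Capn15 KO. In both genotypes the highest library was that of litter B with the number 2, and 6 of 7 pairs were slightly higher in Capn15 KO. The other pairing within litter B would set KO_3 (188 CPM) below WT_2 (192 CPM). Its fitted fold change was 0.997 (95% interval 0.960 to 1.04).

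Dpysl5 (CRMP5), which counteracts the neurite growth promoted by CRMP2, had the largest difference of the 10. Its levels were 428, 490 and 539 CPM in WT and 493, 503 and 545 CPM in Capn15 KO brains, with means of 489 ± 32.7 and 512 ± 20.5 CPM (SD, n = 7 each). The lowest Capn15 KO library was above the WT median, yet 6 of 7 Capn15 KO libraries lay within the WT range. The fitted change was 5.43% higher in Capn15 KO (95% interval 0.813% to 10.3%, edgeR adjusted p = 0.885), and an exact permutation test of log2 CPM gave p = 0.131 (two-sided, n = 7 against 7). WT_7 was the lowest library by far, and without litter F the log2 difference was 0.052 in place of 0.076, with an adjusted p of 1.0. It was 0.119 without WT_4 (adjusted p = 0.338) or KO_4 (adjusted p = 0.344). Leaving out either brain takes litter C out of the genotype estimate, so these fits are not separate checks.

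**Figure D3:**
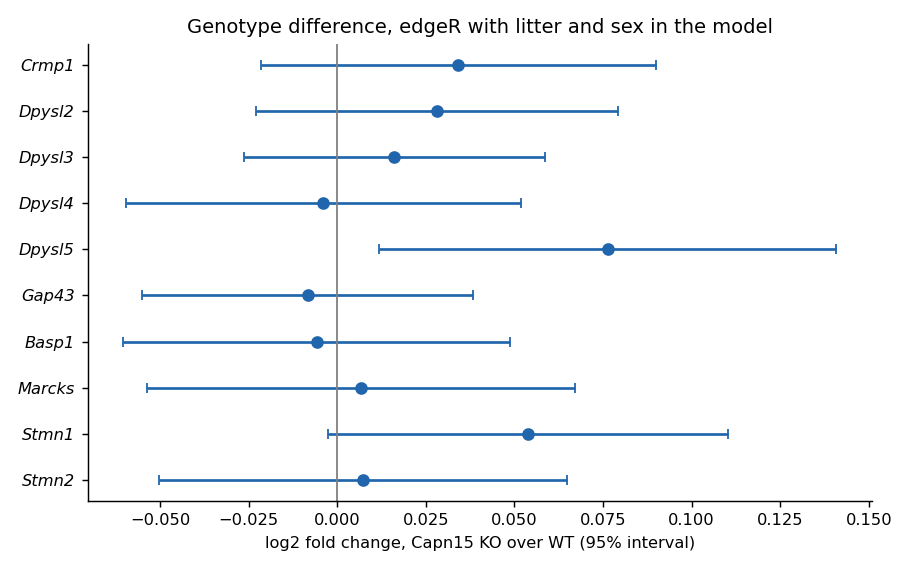
Log2 fold change of Capn15 KO over WT for each gene with its 95% interval, from the edgeR fit with litter and sex. All points lie between -0.0083 and 0.076, and the interval of Dpysl5 is the 1 interval that does not include 0.

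Gap43, a substrate of protein kinase C found in nearly all growing axons, lay at 795, 876 and 901 CPM in WT and at 806, 866 and 900 CPM in Capn15 KO brains. It was higher in the Capn15 KO brain in 2 of 7 pairs, with a fold change of 0.994 (95% interval 0.963 to 1.03). Basp1 (CAP23), related to Gap43 in its mode of action, lay at 663, 708 and 725 CPM in WT and at 657, 695 and 733 CPM in Capn15 KO. Marcks, which releases phosphoinositides when protein kinase C phosphorylates it, lay at 595, 606 and 662 CPM in WT and at 559, 619 and 674 CPM in Capn15 KO. For both genes KO_7 was the lowest of all 14 libraries and 5 of 7 pairs were higher in Capn15 KO. The fold change of Basp1 was 0.996 (95% interval 0.959 to 1.03). Marcks was 0.473% higher in Capn15 KO in the fit (95% interval -3.65% to 4.77%).

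Stmn1, the ubiquitous stathmin, lay at 805, 996 and 1048 CPM in WT and at 913, 1024 and 1052 CPM in Capn15 KO brains. It was higher in Capn15 KO in 5 of 7 pairs, by 3.81% in the fit (95% interval -0.173% to 7.95%, edgeR adjusted p = 0.978). The lowest library of each genotype was that of litter F, and WT_7 stood apart from the other WT brains, of which the next was WT_5 at 943 CPM. Without litter F the log2 difference was 0.030 in place of 0.054. Leaving out WT_7 alone gave 0.027, but KO_7 is then the only brain of litter F. The litter term takes up KO_7, so this fit nearly repeats the one without litter F and does not test WT_7 by itself. Stmn2 (SCG10), the neuronal stathmin, lay at 727, 828 and 880 CPM in WT and at 757, 820 and 880 CPM in Capn15 KO. Its fold change was 1.01 (95% interval 0.966 to 1.05), and 3 of 7 pairs were higher in Capn15 KO. Exact permutation tests over the 3432 regroupings, which take no account of litter or sex, gave p between 0.131 and 0.890 for the 10 genes, where 0.000583 is the smallest p possible.

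More of the 10 genes were called between litters than between genotypes. This did not hold gene by gene, since Crmp1 had an unadjusted edgeR p of 0.477 between litters and 0.21 between genotypes. Between litters, 4 of 10 genes changed, namely Stmn1 (edgeR adjusted p = 0.0030), Stmn2 (adjusted p = 0.0077), Gap43 (adjusted p = 0.0142) and Dpysl4 (adjusted p = 0.0418). The same test called 5301 of 17927 genes (29.6%), so that 4 of 10 is near the share of all genes. DESeq2 called 8 of 10, beside 28.6% of all genes, so that the reading depends on the test. In whole brain, fewer cells of a type and less RNA per cell cannot be told apart.

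Gap43 and Stmn2 shared their order of litters at the low end. Gap43 averaged 809 CPM in litter B (795 to 822, 4 brains) and 818 CPM in litter C (807 and 828), against 871 to 890 CPM in the other 4 litters. Stmn2 averaged 755 CPM in litter B (727 to 785) and 783 CPM in litter C (766 and 799), against 836 to 871 CPM elsewhere. For neither gene did the range of litter B overlap that of litters A, D, E or F. The highest litter was F for both, 1.10 times litter B for Gap43 and 1.16 times for Stmn2. The calls of both genes held in 14 of 14 fits that left out 1 library and without litter F (adjusted p = 0.0252 for Gap43 and 0.0146 for Stmn2).

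Stmn1 and Dpysl4 were highest in litter B, where Gap43 and Stmn2 were lowest. Stmn1 averaged 1042 CPM in litter B (1027 to 1052) and 859 CPM in litter F (805 and 913), a ratio of 1.21, with 954 to 1010 CPM in the other litters. Its call held in 14 of 14 fits that left out 1 library, with adjusted p between 0.0016 and 0.028. It did not hold without litter F as a whole (adjusted p = 0.113). Dpysl4 averaged 188 CPM in litter B (179 to 194) and 169 to 178 CPM in the others. Its call was the least firm, as it held in 4 of 14 fits that left out 1 library, with adjusted p between 0.0285 and 0.140. Between the stathmins, the log2 ratio of Stmn2 to Stmn1 CPM was -0.46 in litter B and 0.023 in litter F, with -0.35 to -0.16 in the other litters. WT_7 (0.13) was the single library in which Stmn2 exceeded Stmn1 in CPM.

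**Figure D4:**
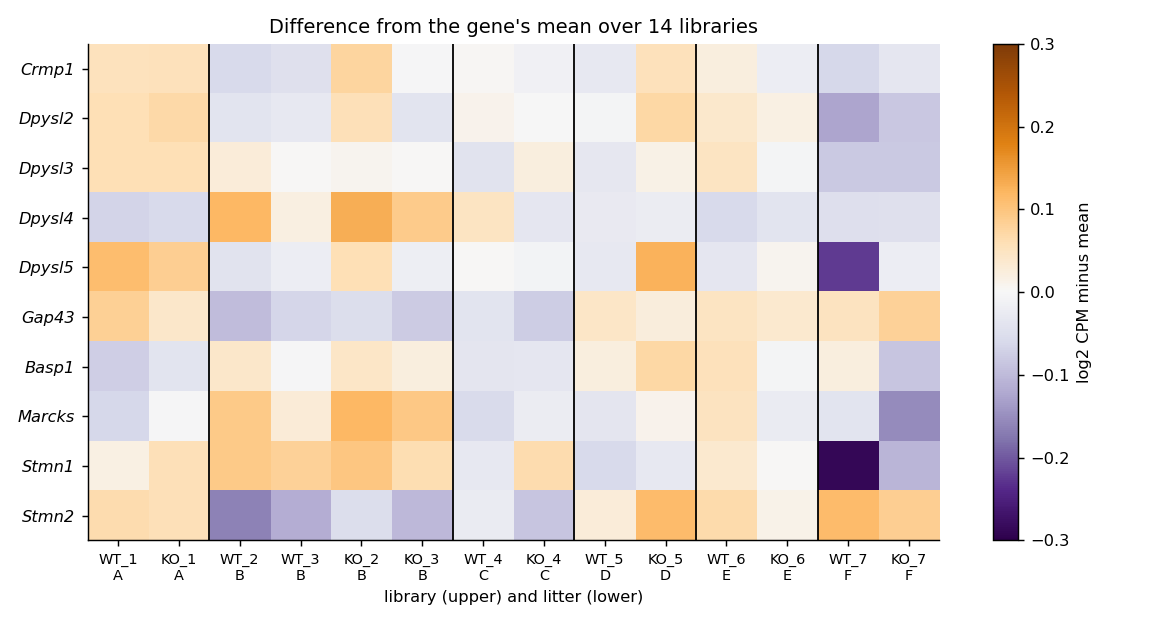
Log2 CPM of each gene in each library minus the gene's mean over the 14 libraries, with libraries ordered by litter (orange above, purple below the mean). Litter B is low for Gap43 and Stmn2 and high for Dpysl4, Marcks and Stmn1, and WT_7 of litter F is lowest for Stmn1 and Dpysl5.

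The remaining 6 genes did not pass the adjusted test between litters, although 8 of 10 had an unadjusted p under 0.05, beside 41.0% of all genes. Dpysl3 (adjusted p = 0.0573), Marcks (0.0608), Dpysl5 (0.0652) and Dpysl2 (0.0769) lay just above the threshold, and Basp1 (0.294) and Crmp1 (0.596) well above it. The mean of litter F was the lowest of the 6 litters for 6 of 10 genes, Crmp1, Dpysl2, Dpysl3, Dpysl5, Marcks and Stmn1. Litter A had the highest mean for 4 of 10, the CRMPs other than Dpysl4. Crmp1 and Basp1 were the steadiest of the 10 across litters, with a ratio of 1.07 each between the highest and lowest litter mean.

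Glial markers moved with the litters as well. The summed level of the 6 astroglial markers was 1473 to 1676 CPM in litter B, 1789 to 1802 CPM in litter C, 2041 to 2096 CPM in litter A and 2068 to 2139 CPM in litter F, and 5 of 6 were called between litters, by the test that called 29.6% of all genes. The 6 markers of the oligodendrocyte lineage summed to 284 to 317 CPM in litter B and 426 to 430 CPM in litter F, with 6 of 6 called. The 7 progenitor markers, all called, summed to 355 to 378 CPM in litter B and 388 to 416 CPM in litter F. The 6 neuronal markers summed to 6367 to 6489 CPM in litter B and 6219 to 6395 CPM in litter F, with 4 of 6 called. None of these markers was at 0 in every library, and their part in the litter differences of Gap43, Stmn1, Stmn2 and Dpysl4 was not tested. Red blood cell markers were also highest in litter B (178 to 294 CPM) and lowest in litter D (27.5 to 32.2 CPM), and their part was not tested.

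No gene passed the test for sex. Between female and male brains 0 of 10 genes were called, beside 0.0669% of all genes, and 0 of 10 had an unadjusted edgeR p under 0.05, beside 5.04%. The log2 differences of female over male ran from -0.040 (Stmn1) to 0.033 (Dpysl4), with intervals between -0.10 and 0.093, and the lowest adjusted p was 0.927 (Dpysl3). Dpysl3 averaged 2622 ± 65.9 CPM in 6 females and 2628 ± 96.9 CPM in 8 males. The interaction of genotype and sex called 0 of 10 (lowest adjusted p = 0.677, Stmn1), beside 0.00558% of all genes. At an unadjusted p under 0.05 there was 1 of 10, Stmn1, beside 6.85%. Brains of the same number were of opposite sex in every litter but F, so that the interaction rests on litter F, and Capn15 itself was the 1 gene called by it (adjusted p = 0.0475).

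Across the 14 brains some of the genes varied together. These correlations are descriptions over libraries that share litters, for 45 pairs of genes. Values within litters have the litter means taken out and genotype and sex left in. Gap43 and Stmn2 had the highest (Pearson's r = 0.92, Spearman's rank correlation = 0.85, n = 14), with r = 0.88 after leaving out the 2 farthest libraries and r = 0.42 within litters. Among the CRMPs, the 6 pairs without Dpysl4 had r between 0.58 and 0.86, and the 4 pairs with Dpysl4 between -0.063 and -0.0011. Values of this size were not particular to the family. Stmn1 had r = 0.75 with Dpysl3, 0.61 with Dpysl5, 0.59 with Dpysl2 and 0.39 with Crmp1. Without litter F these 4 values were 0.46, -0.15, -0.22 and -0.024. Crmp1 and Stmn2 had r = 0.29 over all libraries and r = 0.85 within litters. Crmp1 and Dpysl2 stayed together within litters (r = 0.86 over all libraries, rank correlation = 0.86, r = 0.92 within litters), and so did Dpysl2 and Dpysl5 (r = 0.86, rank correlation = 0.79, r = 0.76 within litters). Dpysl3 was close to Dpysl2 over all libraries (r = 0.76, rank correlation = 0.65) and less so within litters (r = 0.25) or without litter F (r = 0.46). Without litter F, Dpysl3 had r = 0.43 with Crmp1 and r = 0.43 with Dpysl5.

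The other gene groups paired differently. Basp1 and Marcks, both membrane proteins, had r = 0.74 (rank correlation = 0.75), r = 0.54 without the 2 farthest libraries and r = 0.95 within litters. Gap43 varied against both, with r = -0.65 for Marcks and r = -0.30 for Basp1. Dpysl4 varied against Gap43 (r = -0.80, rank correlation = -0.81) and Stmn2 (r = -0.75, rank correlation = -0.68), but within litters these values were 0.15 and 0.26. The 2 stathmins varied in opposite directions (r = -0.66, rank correlation = -0.77), with r = -0.17 within litters. Over the same libraries Gap43 had r = 0.87 with the summed astroglial markers and r = 0.90 with those of the oligodendrocyte lineage. Stmn2 had 0.88 and 0.89. Within litters these values were 0.57 and 0.74 for Gap43 and 0.62 and 0.57 for Stmn2. Over all libraries Dpysl4 (r = -0.83 and -0.80) and Marcks (r = -0.76 and -0.78) varied against the same 2 sums. Within litters these values were weaker, at -0.31 and -0.15 for Dpysl4 and 0.015 and -0.20 for Marcks. With the neuronal markers the r of Gap43 and Stmn2 was 0.083 and 0.0059. It was higher for Dpysl5 (0.71, 0.54 within litters), Stmn1 (0.57, 0.65 within litters) and Crmp1 (0.56, 0.31 within litters). For Marcks, Basp1 and Dpysl4 it was 0.10, -0.082 and -0.24. With the total count per library, r lay between -0.32 (Dpysl4) and 0.38 (Stmn2).

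**Figure D5:**
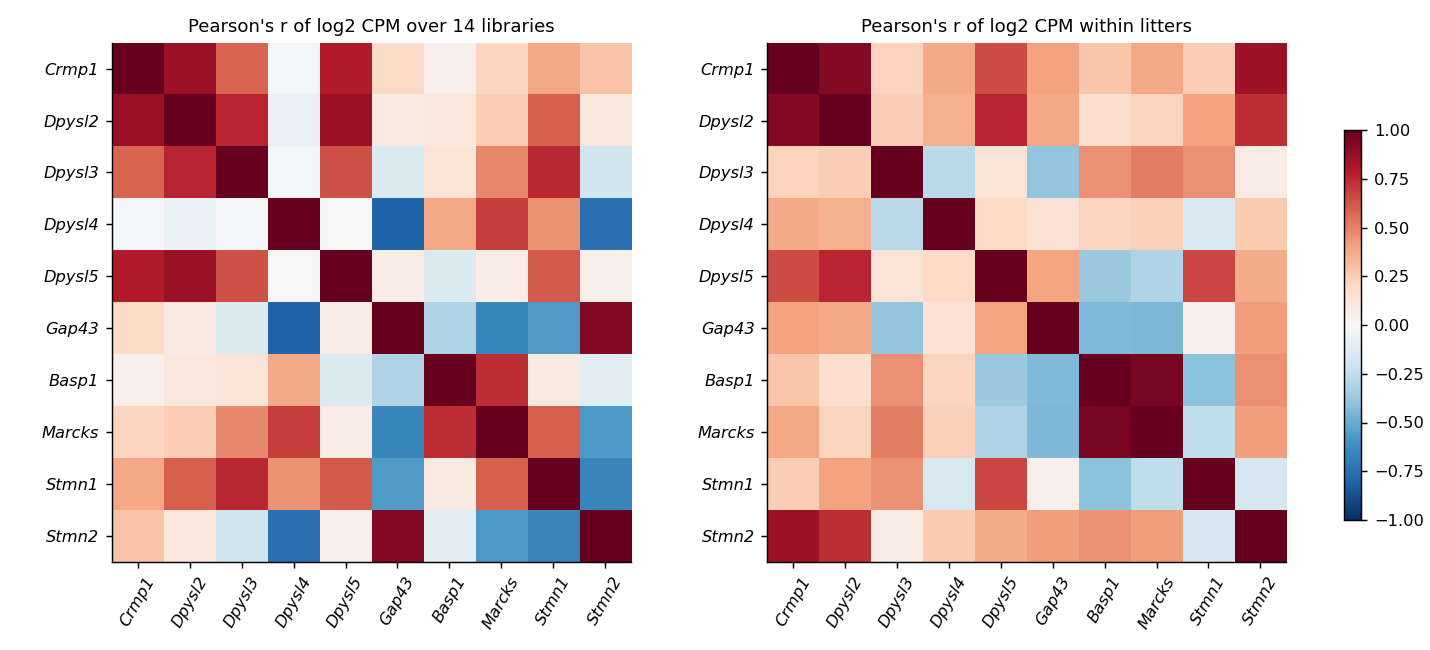
Pearson's r of log2 CPM for each pair of genes over the 14 libraries (left) and after taking out litter means (right), from blue (-1) to red (1). Gap43 and Stmn2 stand out on the left (r = 0.92) and are weaker on the right (r = 0.42), while Basp1 and Marcks reach r = 0.95 on the right.

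The genes of the table whose pattern over 14 libraries was most like that of 3 of these genes were taken from 15217 genes with a mean of at least 1 CPM. For Stmn2 they were Trap1 (r = 0.98), a mitochondrial chaperone, Ndfip2 (r = 0.98), an adaptor of ubiquitin ligases, and Flot1 (r = 0.96), a scaffold of membrane rafts. For Gap43 they were Sprn (r = 0.96), a prion-related protein, Bdh1 (r = 0.95), a mitochondrial enzyme of ketone use, and Smim10l2a (r = 0.95). For Crmp1 they were 2610005L07Rik (r = 0.91), Ecd (r = 0.85) and Imp4 (r = 0.85), the last a protein of ribosomal RNA processing. Dpysl2 (r = 0.86) was thus nearer to Crmp1 than all but 1 of these genes.

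The partners of these proteins did not pass the test between genotypes either. Of 67 genes in 8 lists of upstream and partner genes, 66 were in the table and 0 were called between genotypes, with a lowest adjusted p of 0.614. At an unadjusted p under 0.05 there were 6 of 66 (9.09%, beside 5.14% of all genes), of which all 6 had higher values in Capn15 KO, beside 2.88% of all genes in that direction and 2.26% in the other. The median log2 fold change over the lists was 0.0040. Between litters 28 of 66 were called (42.4%, beside 29.6%).

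The semaphorin 3A receptors and effectors held 3 of those 6 among 10 genes, with a list median of 0.042 on the log2 scale. Plxna1, a plexin that signals for semaphorins, was 316 ± 16.3 CPM in WT and 331 ± 21.5 CPM in Capn15 KO (log2 difference 0.079, edgeR adjusted p = 0.729). Plxna2 was 227 ± 18.8 and 235 ± 11 CPM (log2 difference 0.077, adjusted p = 0.784). Mical2, an enzyme that oxidises actin, was 26.8 ± 3.40 and 28.8 ± 4.90 CPM (log2 difference 0.11, adjusted p = 0.857). Each was higher in Capn15 KO in 5 of 7 pairs, and none passed the test.

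Of the 11 genes for protein kinase C, calmodulin and phosphoinositide enzymes, Prkce was the 1 with an unadjusted p under 0.05. Prkce, a kinase of Gap43 and Marcks, was 178 ± 8.64 CPM in WT and 187 ± 11.5 CPM in Capn15 KO (log2 difference 0.088, adjusted p = 0.614, 6 of 7 pairs higher). Of 9 CRMP kinases and phosphatases it was Gsk3b, which phosphorylates CRMPs after priming, with 209 ± 11.8 and 215 ± 8.51 CPM (log2 difference 0.058, adjusted p = 0.954). The priming kinase Cdk5 was 94.6 ± 3.89 and 92.4 ± 3.04 CPM. Of 8 transport and endocytosis partners it was Wasf1, a member of the WAVE complex that CRMPs bind, with 35 ± 2.81 and 37.8 ± 2.18 CPM (log2 difference 0.12, adjusted p = 0.784, 6 of 7 pairs higher).

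The other 4 lists had no gene with an unadjusted p under 0.05. The list for relatives of the stathmins and of Marcks had 4 measured genes, Stmn3, Stmn4, Marcksl1 and also Nrgn. Marcksl1 was 886 ± 62.0 CPM in WT and 919 ± 54.1 CPM in Capn15 KO, and Stmn4 was 249 ± 35 and 237 ± 18.4 CPM. All 4 of these genes were called between litters. The 6 stathmin kinases had log2 differences between -0.040 (Camk4) and 0.011. The 5 mRNA-binding proteins included Elavl4 (HuD), which stabilises Gap43 mRNA, at 171 ± 13.2 and 165 ± 13.6 CPM, and Tardbp (TDP-43), which controls splicing of human STMN2, at 196 ± 15.1 and 191 ± 11.1 CPM. The 13 growth cone actin regulators had log2 differences between -0.022 and 0.071 (Enah), and 1 of 13 was called between litters.

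The marker lists were compared between genotypes as well. For choroid plexus, 4 of 5 markers had an unadjusted p under 0.05 with lower values in Capn15 KO, beside 2.26% of all genes in that direction, and their sum was 726 to 959 CPM in WT and 594 to 828 CPM in Capn15 KO. For leptomeninges this was 3 of 6, with sums of 229 to 356 and 263 to 325 CPM. The neuronal markers, in contrast, summed to 6219 to 6642 CPM in WT and 6367 to 6597 CPM in Capn15 KO, with 1 of 6 at an unadjusted p under 0.05, and no marker of any of the 9 lists was called between genotypes by edgeR. Within litters the choroid plexus sum had r = -0.82 with Dpysl5 and r = -0.68 with Stmn1, and over all 14 libraries r = -0.51 and r = 0.039. With Crmp1, Gap43 and Basp1 the within-litter r was -0.42, -0.041 and 0.44. Genotype was not taken out, and every litter but B held 1 WT and 1 Capn15 KO brain. The within-litter values therefore hold the genotype differences and cannot be told apart from them. The part of the choroid plexus and leptomeningeal markers in the genotype values of the 10 genes was not tested.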

How the data were processed

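RNA-SEQ was performed on 7 WT and 7 Capn15 KO brains at P2. The authors trimmed the reads with Trimmomatic, aligned them to GRCm38 with STAR and deposited counts per gene without normalization for 17927 genes, filtered by a rule not given in the sources used here. The labels name featureCounts and a stranded TruSeq kit, whereas the study's methods name HTSeq-count and ScriptSeq. Genotype came from the labels, litter and sex from the column names. Same-numbered brains come from the same litter by this reading. The correlation of their deviations from the group means averaged 0.12 (-0.47 to 0.44) over 15227 genes. It was negative for the numbers 4, 5 and 6 (-0.47, -0.10 and -0.068). For brains of different litters it averaged -0.12. That average includes pairs of the same genotype, which taking out the group mean draws below 0, so it is no baseline for the litter reading. No 2 libraries agreed within sampling noise (lowest chi-square per gene 4.66).

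All genes were fitted in R 4.3.3 with edgeR 4.0.16 (TMM factors, quasi-likelihood test, litter, sex and genotype) and Benjamini-Hochberg adjustment over all genes, threshold 0.05. Log2 CPM used a prior count of 2. Exact permutation tests were two-sided. Alternatives were DESeq2 1.42.0, limma 3.58.1, a likelihood ratio test, other scaling, filters and designs, and leaving out libraries. Positions and exon lengths came from GENCODE M21 (17909 genes matched by identifier), and the level per length is CPM per kb of the union of exons. Named are the 10 genes, Capn15, up to 3 genes per list by smallest p and the 3 genes most like Crmp1, Gap43 and Stmn2. The members and lists were chosen with earlier results of these data known.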

Additional observations from a re-analysis of the deposited data

Results flagged for a closer look

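In the 10 genes and Capn15, the highest and lowest library of each genotype were compared on the log2 CPM scale with the nearest other library, and 3 of 22 groups had a gap above Dixon's 95% critical value for 7 samples, where chance gives about 1 in 20 groups (1.1 expected). Stmn1 in WT_7 was 805 CPM, below WT_5 at 943 CPM, with a gap of 0.600 of the WT range on the log2 scale. On the CPM scale this gap was 0.57 and did not exceed the critical value. Capn15 in the library labelled WT_7 was 18.7 CPM, below WT_6 at 25 CPM, with a gap of 0.761 of the range on the log2 scale and 0.73 on the CPM scale. Capn15 in the library labelled KO_7 was 20.2 CPM, above KO_6 at 14.5 CPM, with a gap of 0.647 of the range on the log2 scale and 0.70 on the CPM scale. All of them came from litter F.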

How the results depend on the processing

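Over 22 alternatives for each of the 10 genes, 220 in all, 0 called a gene between genotypes, and the log2 differences lay between -0.025 and 0.119 with a lowest adjusted p of 0.338. Of these, 20 turned the sign of a difference near 0. With genotype alone in the model Dpysl4 was 0.0059, and without litter F Basp1 was 0.013. Leaving out 1 library gave -0.019 to 0.013 for Dpysl4, -0.025 to 0.013 for Basp1, -0.0069 to 0.029 for Marcks and -0.025 to 0.032 for Stmn2. The remaining 6 kept their sign in all 22. The alternatives were not all separate. In every litter but B, leaving out 1 brain takes the whole litter out of the genotype estimate, so leaving out its WT or its Capn15 KO brain gives nearly the same difference. The replicate block called 0 genes of the whole table in place of 1 and changed no call among the 10 genes. Genes called in the whole table between genotypes numbered 34 with the likelihood ratio test, 17 with DESeq2, 7 without litter F and 0 to 7 with 1 library left out. Capn15 had an adjusted p of 0.0747 (log2 difference -0.81) and was called by 6 of 22 alternatives, among them without litter F (-0.98). Between litters, DESeq2 called 8 of the 10 genes, the ones other than Crmp1 and Basp1, beside 28.6% of all genes, and leaving out 1 library gave 3 to 5. The filter on low counts removed no gene and so repeated the fit as reported. The interaction without litter F could not be fitted. With the longest transcript as length, levels moved for 8 of 10 genes. Depth did not limit these genes, since the lowest count was 6543. The cause of these changes was not tested.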
